A study of Mus musculus with 9 samples.

Results

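Imprinted genes are described here in 9 single cells taken from the paraventricular nucleus region of the mouse hypothalamus. The members are the 10 gene rows Meg3, Rian, Dlk1, Peg3, Ndn, Magel2, Snrpn, Nnat, Gnas and Impact, named by symbol among 23528 symbols; the largest of any numbered rows of a symbol would have been taken in each cell, but these 10 symbols had 0 numbered rows. The cells came from juvenile C57Bl6/N mice of 21 to 28 days, and all 9 carry the same label, secretagogin-positive. Secretagogin is a cytosolic protein that binds calcium through EF hands. The cells are called cell 1 to cell 9 after their labels, no treatment or second group exists, and no animal is named, so the 9 cells count as 1 sample and no test between cells was made. Each value is a whole number of molecules, the name the deposit gives its counts, and a level is the molecules of a gene per 10000 gene molecules of the cell.

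Genomic imprinting is the expression of a gene mainly from the allele of 1 parent, set by DNA methylation marks that the germ line lays down. Many imprinted genes lie in clusters under a shared control region, and the brain, the hypothalamus above all, expresses many of them. Meg3 and Rian are long non-coding RNAs read from the maternal copy of a cluster in which the paternal copy gives Dlk1. Peg3, Ndn, Magel2, Snrpn, Nnat and Impact are read mainly from the paternal copy, while Gnas gives maternal, paternal and biallelic transcripts from separate promoters. The strain is inbred and the counts carry no allele, so parental origin was not measured in these cells. The parental assignments below are background.

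The depth differed 25.9-fold between cells, from 1021 gene molecules in cell 1 and 3393 in cell 6 to 26466 in cell 5, with a median of 9573. Spike-in RNAs, added with the lysis buffer, ranged from 1962 to 2184 molecules over cells 1 to 8; cell 9, sequenced on another lane, had 614. A count of 0 was given a limit of 3 molecules, which is 29.4 per 10000 in cell 1, 8.84 in cell 6 and 1.13 in cell 5. Exact 95% intervals cover counting error only. Neuron markers without Meg3 were detected in every cell, from 2 of 12 markers in cell 1 to all 12 in cells 2 and 5, and their share of a cell's molecules was lowest in cells 4 and 8, at 0.0998 and 0.235%, and 0.737 to 1.37% elsewhere. Cell 4 also held 2507 molecules of 6 blood markers and 121 of 7 endothelial markers, cell 5 held 427 of 9 oligodendrocyte markers, cell 7 held 60 of the endothelial markers, and cell 8 held 304 of 8 ependymal and tanycyte markers and 29 of 8 astrocyte markers. The blood markers had 0 molecules in the 8 other cells. Scgn, the gene by which the cells are labelled, had 0, 1, 11, 0, 1, 0, 0, 3 and 1 molecules from cell 1 to cell 9, so it was seen in 5 cells. The part of these markers in the results was not tested, and the main counts are also given without cells 4, 5, 7 and 8.

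Most of the 10 named imprinted genes were widely detected. Of the 10, 8 reached 5 or more cells with at least 1 molecule, and the other 2, Magel2 and Snrpn, were found in fewer. These 10 were chosen with earlier results of these data known, so their counts describe a chosen list and not imprinted genes in general. Of 60 other imprinted genes with a row, described below, 13 reached 5 cells and 20 had no molecule. Among all symbols 7% reached 5 cells, and among the 9745 symbols with any molecule 16.9% did. Meg3, Nnat and Gnas were detected in all 9 cells, as were 0.196% of all symbols and 0.472% of those with any molecule. With at least 23 molecules in all there were 7 members and 2.72% of all symbols. This cut is the total of Dlk1, itself a member, so the number of members above it was fixed by the choice of cut. At 2 or more molecules in at least 5 cells there were 6 members, against 2.64% of all symbols. Without cells 4, 5, 7 and 8, 8 members were in at least 3 of 5 cells, against 5.99% of all symbols. At a depth of 1021 molecules in every cell, the exact expectation was that 3.35 members would reach 5 cells. The share of all symbols at that depth was not computed, so this number has no comparison. Meg3 and Gnas, with 8.20 and 6.70 expected cells, were the 2 members whose expected number of cells was at least 5, and Nnat followed with 4.80.

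Together the 10 genes gave 855 of 91370 gene molecules, or 0.936% (interval 0.874 to 1.00%). Cells 1 to 9 had, in that order, shares of 6.56% (interval 5.12 to 8.26%), 1.42, 1.11, 0.341 (0.245 to 0.462), 0.691, 1.39, 1.34, 0.668 and 0.997%. Cell 1, the shallowest, thus stood above the other 8, and cell 4, with the blood markers, lay below them. Meg3 alone gave 413 of the 855 molecules, or 48.3%, and 57.5% without cells 4, 5, 7 and 8. Without Meg3 the share ran from 0.108% in cell 4 (interval 0.0576 to 0.185%) and 0.293% in cell 7 to 0.818% in cell 9 (0.630 to 1.04%), and cell 1, at 0.588%, lay within the range of the others.

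**Figure D1:**
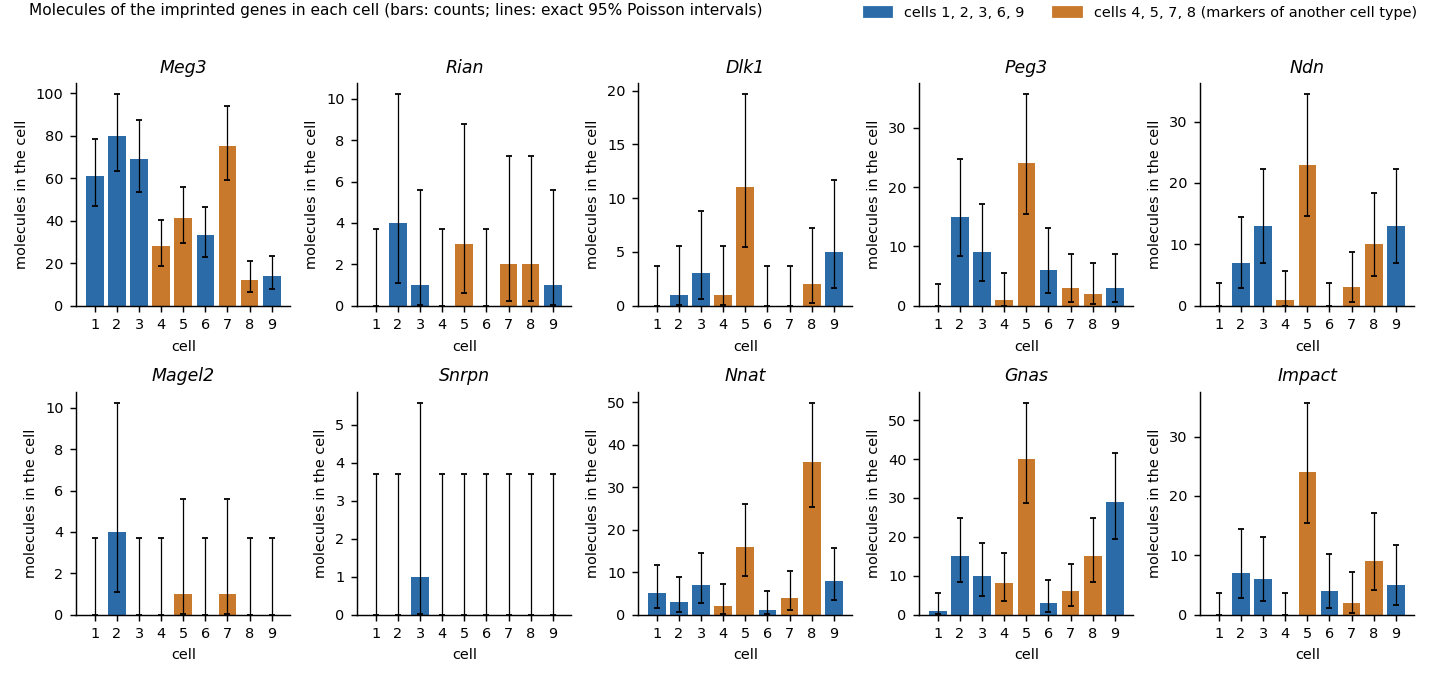
Molecules of each imprinted gene (vertical axis, linear, each panel on its own scale) in cells 1 to 9 (horizontal axis); bars are counts, lines are exact 95% Poisson intervals, and orange marks cells 4, 5, 7 and 8, which carried markers of another cell type. Meg3, Nnat and Gnas have a bar in all 9 cells, whereas Magel2 has bars in 3 cells and Snrpn in 1.

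Meg3 is a nuclear long non-coding RNA on chromosome 12 at 109541001 to 109571726 (plus strand, GRCm38/mm10). Its molecules numbered 61, 80, 69, 28, 41, 33, 75, 12 and 14 in cells 1 to 9. The fewest, 12, were thus those of cell 8 and the most, 80, those of cell 2. In levels they spread 65.6-fold, from 9.11 per 10000 in cell 8 (interval 4.71 to 15.9) to 597 in cell 1 (457 to 767). Cells 2, 3, 6 and 7 lay at 83.6, 64.3, 97.3 and 105 per 10000, and among these 4 only cells 7 and 3 had intervals apart, with a lower end of 82.4 against an upper end of 81.4. Cells 4, 5, 8 and 9 formed the lower end, at 23.3, 15.5, 9.11 and 17.9, each with its interval below those of cells 1, 2, 3, 6 and 7. Of 36 pairs of cells, 25 had intervals that did not overlap, the most of any member.

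In molecules Meg3 held the second place of all genes in cell 1 and the third in cell 2, but place 109 in cell 8. Its level was ordered against depth, with a Spearman correlation of -0.87 with the gene molecules over the 9 cells, and -0.75 without cells 1 and 6. Depth is the divisor of the level, so the 2 measures share a term. The correlation of Meg3 molecules with depth was -0.30. Scaled to spike-ins, Meg3 ran from 5.50 per 1000 spike-in molecules in cell 8 to 37.0 in cell 2, with 30.1 in cell 1. Malat1, another nuclear long non-coding RNA, was also highest in cell 1, at a level of 1166 per 10000, and lowest in cell 9, at 30.7. Unlike that of Meg3, its interval in cell 1 (966 to 1395) overlapped that of cell 7 (901 to 1047). Per 1000 spike-in molecules, Malat1 was highest in cell 5, at 418, with 58.7 in cell 1. An overlapping non-coding gene on the opposite strand, without a row in the table, shares 1228 exon bases with Meg3, and whether the counting used strand is not stated in the sources used here.

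The promoter of Meg3 is shown because this gene carries nearly as many molecules as the 9 others together; capitals mark the sequence TGACGTCA, the palindrome known as the cAMP response element. RefSeq gives Meg3 a pair of starts, and the window shown spans 250 bases before to 50 bases after the upstream one (GRCm38.p6, chr12:109540746-109541045, plus strand) and holds 13 CpG dinucleotides, where the median over 32851 promoter windows is 7. The window of the downstream start, chr12:109545148-109545447, holds 1 CpG dinucleotide and no TGACGTCA.
Meg3: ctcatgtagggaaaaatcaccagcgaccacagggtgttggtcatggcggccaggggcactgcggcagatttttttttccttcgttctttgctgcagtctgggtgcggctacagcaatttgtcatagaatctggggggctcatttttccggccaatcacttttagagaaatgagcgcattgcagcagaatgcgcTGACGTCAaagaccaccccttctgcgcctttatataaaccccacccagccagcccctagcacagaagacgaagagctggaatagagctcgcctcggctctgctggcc
The same palindrome stands in 1.79% of all 32851 windows and, among the 9 members with a window in the table, also in that of Peg3, shown further on. The palindrome was picked after the sequences had been read, and a match is a description of the letters alone.

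**Figure D2:**
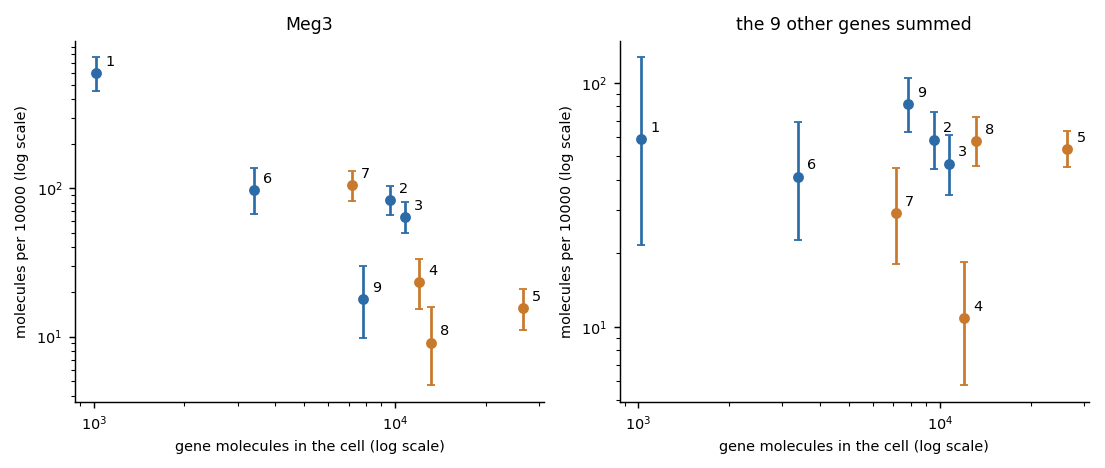
Level in molecules per 10000 (vertical axis, log scale) against the gene molecules of the cell (horizontal axis, log scale) for Meg3 at left and for the 9 other genes summed at right; each point is 1 cell with its number and exact 95% interval, orange for cells 4, 5, 7 and 8. Meg3 spreads from 9.11 to 597 per 10000 and is highest in the shallowest cell, while the sum of the others is lowest in cell 4 and highest in cell 9.

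Rian, the next long non-coding RNA of the cluster and the host of many small nucleolar RNAs, lies at 109603940 to 109661716 on the same strand. Its molecules in cells 1 to 9 were 0, 4, 1, 0, 3, 0, 2, 2 and 1. The 13 Rian molecules were 3.05% of those of Meg3 and Rian together (interval 1.63 to 5.16%). All pairs of cells overlapped in their Rian intervals, so cells could not be told apart by this gene at this depth. Mirg, a further long non-coding RNA of the cluster, had 3 molecules, 2 of them in cell 3. The table also has rows for 53 of the 57 microRNA hairpins that RefSeq places from Dlk1 to Mirg, and these rows held 0 molecules; the libraries were made from polyadenylated RNA. A small nucleolar RNA inside Rian, AF357425, had a row with 3 molecules, and it shares 73 exon bases with Rian.

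Dlk1 encodes a transmembrane protein related to the Notch ligands and lies upstream of Meg3 at 109452823 to 109463336 (plus strand). The 9 cells had 0, 1, 3, 1, 11, 0, 0, 2 and 5 molecules, most of them in cells 5 and 9. As levels, cell 9 was the highest at 6.39 per 10000 (interval 2.07 to 14.9) and cell 5 followed at 4.16 (2.07 to 7.44), with overlapping intervals. The 23 Dlk1 molecules were 5.28% of those of Dlk1 and Meg3 (interval 3.37 to 7.81%). No pair of cells had Dlk1 intervals apart, so cells could not be ordered by this gene at this depth. Rtl1 of the same cluster had 1 molecule, in cell 2, and Dio3 had none.

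Peg3, the gene of a zinc finger protein that binds DNA, occupies bases 6703892 to 6730431 of chromosome 7 on the minus strand. Cells 1 to 9 had 0, 15, 9, 1, 24, 6, 3, 2 and 3 Peg3 molecules, so that cells 5 and 2 held the most. The levels were highest in cell 6, at 17.7 per 10000 (interval 6.49 to 38.5), and in cell 2, at 15.7 (8.77 to 25.8), and lowest among the cells with a molecule in cells 4 and 8, at 0.832 and 1.52. The intervals of cells 2, 5 and 6 lay above those of cells 4 and 8, and no other pair was apart. Peg3 was present in 8 cells, 4 of them among the 5 cells left without cells 4, 5, 7 and 8. Usp29, a paternally expressed neighbour that starts close to Peg3 on the other strand, had 9 molecules in 5 cells, with at most 2 in any cell, or 12.5% of those of both genes.

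The Peg3 window (GRCm38.p6, chr7:6730370-6730669, minus strand, 13 CpG dinucleotides) is given for comparison with that of Meg3, again with TGACGTCA in capitals. Of its bases, 263 are shared with the window of Usp29 on the opposite strand.
Peg3: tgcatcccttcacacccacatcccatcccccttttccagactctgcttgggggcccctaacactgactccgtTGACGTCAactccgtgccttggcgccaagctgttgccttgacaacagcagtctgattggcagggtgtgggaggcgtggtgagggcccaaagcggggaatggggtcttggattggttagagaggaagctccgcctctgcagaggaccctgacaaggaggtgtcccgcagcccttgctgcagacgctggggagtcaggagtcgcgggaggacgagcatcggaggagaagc
The levels of Peg3 and Meg3 over the 9 cells had a Spearman correlation of 0.033.

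Ndn, Magel2 and Snrpn belong to the imprinted region whose human counterpart is lost from the paternal copy in Prader-Willi syndrome. Ndn encodes necdin, a protein of the MAGE family found in postmitotic neurons, and lies on chromosome 7 at 62346569 to 62350262 (plus strand). Its counts from cell 1 to cell 9 were 0, 7, 13, 1, 23, 0, 3, 10 and 13 molecules. The level was highest in cell 9, at 16.6 per 10000 (interval 8.84 to 28.4), followed by cell 3, at 12.1 (6.45 to 20.7), and cell 5, at 8.69 (5.51 to 13.0). These 3 cells had intervals above that of cell 4, at 0.832 (0.0211 to 4.63), and overlapped each other.

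Magel2 encodes another MAGE protein, one that acts with a ubiquitin ligase in endosomal sorting, and lies at 62377010 to 62381640 on the same strand. Of its 6 molecules, cell 2 held 4 and cells 5 and 7 held 1 each. They were 7.89% of those of both MAGE genes (interval 2.95 to 16.4%). The level of 4.18 per 10000 in cell 2 (interval 1.14 to 10.7) was not separable by its interval from the limits of the cells without a molecule.

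Snrpn, which encodes the SmN protein of the spliceosome in neurons, was the least detected member, with a single molecule (1, in cell 3). The table holds a second row, Snurf, for the same transcription unit, and this row had 46 molecules in 6 cells (16 in 3 of 5 cells without cells 4, 5, 7 and 8). Snurf is the upstream reading frame of the bicistronic Snurf-Snrpn messenger. Snurf counts from cell 1 to cell 9 were 1, 0, 5, 1, 28, 0, 0, 1 and 10 molecules, highest in cells 5, 9 and 3. In GENCODE M21 Snurf spans 59995449 to 60005049 inside Snrpn, which spans 59982495 to 60140219 on chromosome 7 (both minus strand), and 216 exon bases, the whole annotated length of the Snurf transcript, are shared. How molecules were divided between the 2 rows is not stated in the sources used here, and a further gene on the same strand without a row, Gm38393, shares 589 exon bases with Snrpn. The Snrpn row held 2.13% of the molecules of both rows (interval 0.0539 to 11.3%), so its low count cannot be read as a low level of the Snurf-Snrpn messenger.

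With both rows joined, 9 members in place of 8 were detected in at least 5 cells. The Snurf level was 12.8 per 10000 in cell 9 (interval 6.13 to 23.5), 10.6 in cell 5 (7.03 to 15.3) and 4.66 in cell 3 (1.51 to 10.9). Cells 5 and 9 each had intervals above those of 4 other cells. Ndn had its highest levels in cells 3, 5 and 9 too. A Snurf level of 9.79 in cell 1 rests on 1 molecule (interval 0.248 to 54.6). Cell 2, with 7 Ndn and 4 Magel2 molecules at a depth of 9573, had no Snurf molecule, where the limit for a count of 0 was 3.13 per 10000. Summed, Ndn, Magel2, Snrpn and Snurf gave 123 molecules, from 29.4 per 10000 in cell 9 (interval 18.6 to 44.1) to 1.66 in cell 4 (0.201 to 6.01) and none in cell 6. Of the 31 rows for small nucleolar RNAs named Snord115, Snord116, Snord64 or Snord107, all together held 1 molecule.

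**Figure D3:**
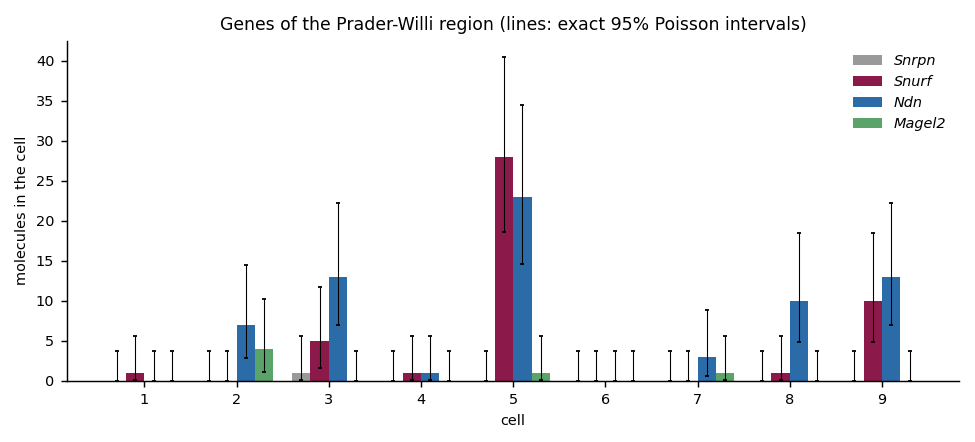
Molecules (vertical axis, linear) of Snrpn, Snurf, Ndn and Magel2 in cells 1 to 9 (horizontal axis); bars are counts and lines are exact 95% Poisson intervals. The Snurf row has 28, 10 and 5 molecules in cells 5, 9 and 3, where Ndn has 23, 13 and 13, while the Snrpn row has 1 molecule in all.

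The start windows of these genes are shown because the RefSeq table places 4 starts on Snrpn, 1 of which has the same window as Snurf, and because all 4 hold the palindrome CGCATGCG, the centre of the known recognition sequence of nuclear respiratory factor 1. The same letters occur in the windows of Ndn and Nnat. The motif was picked after the sequences had been read. It stands in 1.87% of the 32851 windows of 300 bases (the reverse complement is the same), and in those of 3 of the 9 members with a window. Capitals mark it in each sequence, from GRCm38.p6.
Snurf and Snrpn, shared start (chr7:60005150-60005449, minus strand): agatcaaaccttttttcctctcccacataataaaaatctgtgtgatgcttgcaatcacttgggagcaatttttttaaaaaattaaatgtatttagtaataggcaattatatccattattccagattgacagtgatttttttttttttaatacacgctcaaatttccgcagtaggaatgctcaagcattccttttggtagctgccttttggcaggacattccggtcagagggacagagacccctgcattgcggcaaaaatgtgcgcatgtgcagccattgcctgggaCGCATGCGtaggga
Snrpn, upstream start (chr7:60140176-60140475, minus strand): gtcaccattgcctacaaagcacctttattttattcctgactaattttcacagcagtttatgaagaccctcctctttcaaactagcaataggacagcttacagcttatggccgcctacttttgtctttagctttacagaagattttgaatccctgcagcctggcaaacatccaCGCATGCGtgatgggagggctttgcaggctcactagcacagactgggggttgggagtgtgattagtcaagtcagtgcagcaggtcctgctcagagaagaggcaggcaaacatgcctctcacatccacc
Ndn (chr7:62348027-62348326, plus strand): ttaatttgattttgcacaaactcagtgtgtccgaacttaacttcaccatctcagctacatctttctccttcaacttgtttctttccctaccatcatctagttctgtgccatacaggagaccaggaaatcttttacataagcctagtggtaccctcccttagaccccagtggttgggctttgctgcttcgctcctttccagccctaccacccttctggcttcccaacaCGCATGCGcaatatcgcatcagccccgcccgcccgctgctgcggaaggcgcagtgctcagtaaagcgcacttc
Nnat (chr2:157559828-157560127, plus strand): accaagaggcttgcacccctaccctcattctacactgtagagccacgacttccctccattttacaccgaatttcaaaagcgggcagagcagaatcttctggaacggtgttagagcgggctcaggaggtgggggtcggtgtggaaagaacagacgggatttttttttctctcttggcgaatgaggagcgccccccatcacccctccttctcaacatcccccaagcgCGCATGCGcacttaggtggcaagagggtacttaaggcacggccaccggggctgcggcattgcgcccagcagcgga
The windows hold 7, 3, 11 and 17 CpG dinucleotides in this order, the most in that of Nnat. The window of Magel2, with 10, has no CGCATGCG, which says only that these letters are not in those 300 bases. The molecules were not assigned to starts in the table, so the counts do not say which of the Snrpn starts was used.

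Nnat encodes neuronatin, a small proteolipid of the endoplasmic reticulum, and lies on chromosome 2 at 157560078 to 157562522 (plus strand), inside Blcap on the opposite strand. Every cell had Nnat molecules, namely 5, 3, 7, 2, 16, 1, 4, 36 and 8 from cell 1 to cell 9. Cell 8 thus held 43.9% of the 82 molecules, and without cells 4, 5, 7 and 8 there were 24 in 5 of 5 cells. Its level of 27.3 per 10000 (interval 19.1 to 37.8) lay above the intervals of 6 other cells, all but cells 1 and 9. Cell 1 had a higher level, 49.0, from 5 molecules (interval 15.9 to 114). Cell 8 is the cell with the 304 ependymal and tanycyte marker molecules, and among the members only Nnat had its most molecules there; the part of those markers in this count was not tested. Blcap, a neighbour with 6 molecules in cells 3 and 5 only, shares no exon base with Nnat.

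Gnas encodes the alpha subunit of the stimulatory G protein, which couples hormone receptors to adenylyl cyclase, and further proteins from alternative first exons. It occupies bases 174284320 to 174346744 of the plus strand of chromosome 2. Cells 1 to 9 had 1, 15, 10, 8, 40, 3, 6, 15 and 29 Gnas molecules, and no cell lacked the gene. The level was 37.1 per 10000 in cell 9 (interval 24.8 to 53.2) and 6.65 to 15.7 in the 8 other cells, whose intervals all overlapped each other. Cell 9 lay above the intervals of 5 cells and overlapped those of cells 1, 2 and 6. Scaled to spike-ins, cell 9 was again the highest, at 47.2 per 1000, with 18.3 in cell 5, but cell 9 had fewer spike-in molecules than the others and was the only cell on its lane, so cell and lane cannot be told apart. The single Gnas row does not separate the promoters, and 2 genes on the opposite strand share 1469 and 988 exon bases with it.

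Impact encodes an inhibitor of the amino acid sensing kinase GCN2 and lies on chromosome 18 at 12955852 to 12992950 (plus strand). Its counts were 0, 7, 6, 0, 24, 4, 2, 9 and 5 molecules over the 9 cells in order. The levels of the 7 cells with a molecule lay between 2.79 and 11.8 per 10000 and their intervals overlapped. Cell 4, with 12024 gene molecules, had a limit of 2.50 per 10000, and its interval, which reached 3.07, lay below those of cells 5, 6 and 8.

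Where along the transcript a molecule was read is not stated in the sources used here, so the genes are ordered on both scales, total molecules and molecules per length. In total molecules the order was Meg3 with 413, Gnas 127, Nnat 82, Ndn 70, Peg3 63, Impact 57, Dlk1 23, Rian 13, Magel2 6 and Snrpn 1. Per kilobase of the longest annotated transcript the leading genes were Nnat with 56.6 molecules, Gnas with 32.2, Meg3 with 28.4, Ndn with 18.9 and Impact with 15.1. The longest transcript was 14548 bases for Meg3, of 11 annotated, 1448 for Nnat, of 10, and 3947 for Gnas, of 24. Which transcripts gave the molecules is not known here. A shorter transcript would raise the value of a gene, so the order per length depends on this choice. The Ndn length, 3694 bases, is that of the GENCODE transcript from 62346569, but the RefSeq start window, 62348027 to 62348326, lies inside it. With the RefSeq start and the same end, the transcript would be shorter and the Ndn value higher. The totals above weigh the deep cells more, and the order changes when each cell counts equally. Per kilobase, the mean level was 8.63 per 10000 for Nnat, 7.74 for Meg3 and 3.44 for Gnas, but without cell 1 it was 5.48, 3.57 and 3.56. The median level per kilobase was 4.42 per 10000 for Meg3, 4.18 for Nnat and 2.48 for Gnas. Without cells 4, 5, 7 and 8 it was 5.74 for Meg3, 4.51 for Nnat and 2.48 for Gnas. Meg3 thus led in total molecules. With these lengths it also led in the median levels per length, and Nnat led in the other 3 measures per length. Of the 82 Nnat molecules behind its total, 36 were from cell 8.

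The make-up of the imprinted-gene molecules differed between cells. From cell 1 to cell 9, Meg3 gave 91.0, 58.8, 58.0, 68.3, 22.4, 70.2, 78.1, 13.6 and 17.9% of them, so that it held most of the molecules in 6 cells and fewer in cells 5, 8 and 9. Nnat led in cell 8 and Gnas in cell 9, where Meg3 and Ndn followed with 14 and 13 molecules, and Meg3 and Gnas were nearly level in cell 5, at 41 and 40. The 7 paternally expressed members together gave 302 molecules. Their level was 36.3 to 49.0 per 10000 in cells 1, 2, 3, 5, 8 and 9 and 32.4 in cell 6, with 18.2 in cell 7 (interval 9.67 to 31.0) and 4.16 in cell 4 (1.35 to 9.70). The highest, 49.0 in cell 1, rests on 5 molecules, all of Nnat (interval 15.9 to 114). Nnat also gave 36 of the 59 molecules in cell 8. The 2 maternally expressed RNAs, Meg3 and Rian, ranged from 10.6 to 597 per 10000. The interval of cell 4 for the paternally expressed members lay below those of every other cell except cell 7, whose lower end was 9.67.

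**Figure D4:**
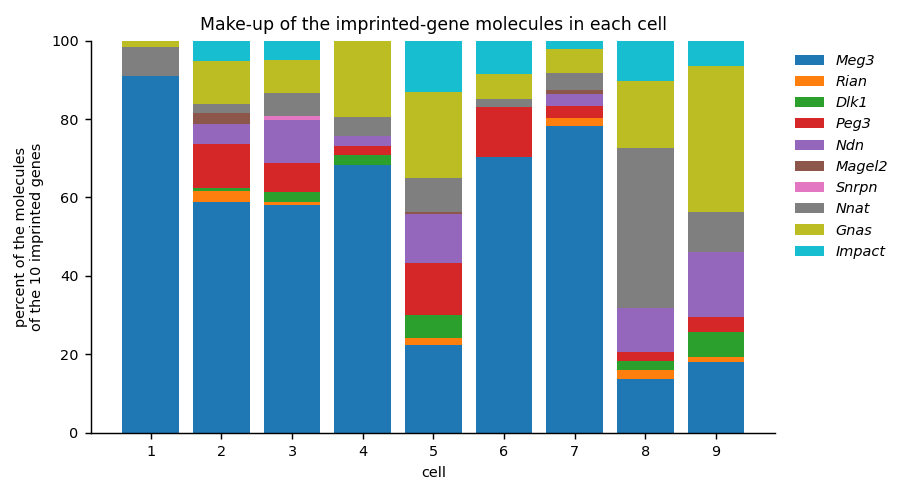
Share of each gene (stacked bars, percent of the molecules of the 10 imprinted genes, vertical axis) in cells 1 to 9 (horizontal axis). Meg3 fills 58.0 to 91.0% of the bar in cells 1, 2, 3, 4, 6 and 7 and 13.6 to 22.4% in cells 5, 8 and 9, where the other genes take the larger part.

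Equal depth was computed exactly, without cell 1, for 3393 molecules per cell. At that depth the expected number of members detected in cells 2 to 9 was 7.64, 7.08, 3.26, 7.01, 5, 6.53, 6.19 and 7.12. At full depth the numbers were 9, 9, 6, 9, 5, 8, 8 and 8, and 3 in cell 1. Cell 4, where neuron markers took the smallest share, thus had the fewest of the members for its depth among these 8 cells. Cell 4 was also poor in genes of any kind, with 2401 detected at 12024 molecules. The shallower cells 2, 3, 7 and 9 had 3493, 3468, 2568 and 2815. Equal depth was not computed for all genes, so whether the low number is particular to the members was not tested.

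The 6 members with at least 45 molecules were compared with each other and ranked against 226 genes of at least that size over the 9 cells. Of the 15 pairs among them, Peg3 and Impact were the most alike over the 9 cells, with a Spearman correlation of levels of 0.83. Meg3 and Ndn were the least alike, at -0.67, and the median was 0.12. Neither pair kept its place without cells 1 and 6, where they had 0.64 and -0.39. Ndn with Nnat and Gnas with Impact then led at 0.75, and Meg3 with Nnat was lowest at -0.61. Over all genes, Ndn was most like Rpl39, a ribosomal protein gene (1.00), Resp18, a gene of neuroendocrine secretory granules (0.97), and Hspa5, the chaperone BiP of the endoplasmic reticulum (0.95). Peg3 was most like 6330403K07Rik (0.98), and 2010107E04Rik, Syt11 and Nap1l5 tied next at 0.92; Nap1l5 is itself imprinted and paternally expressed. Impact was most like Syt11, a synaptotagmin (0.93), Mtch1 (0.91) and 2010107E04Rik (0.90). Gnas was most like Atp5o, Stmn3 and Rbx1, at 0.81 to 0.83, and Nnat like Prdx1, Egr1 and Rpl24, at 0.65 to 0.80. Meg3 was most like Gria2 (0.88), Oxt (0.83) and 2900097C17Rik (0.75). All 3 of these had levels ordered against depth, with correlations of -0.83, -0.93 and -0.67 with the gene molecules, as Meg3 did. These correlations are over 9 points that share the depth of each cell, most counts are small, and of 18 genes chosen in this way, 3 for each member, 4 were still among the 3 most alike without cells 1 and 6.

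Other imprinted genes were read from a list of 64 symbols reported as imprinted in at least some mouse tissue, of which 60 had a row. Of these, 13 reached 5 or more cells, 27 were found in fewer and 20 had no molecule; the 13 are 21.7% of the list, beside 7% over all symbols. Those without a molecule are 33.3% of the list, while 41.4% of all symbols had at least 1 molecule. At 2 or more molecules in at least 5 cells there were 4 genes, or 6.67% of the 60, beside 2.64% of all symbols. Without cells 4, 5, 7 and 8, 12 of the 60 were in at least 3 of 5 cells, beside 5.99% of all symbols. Together the 60 gave 474 molecules, with a median share of 0.569% of a cell's molecules. Nap1l5, of the nucleosome assembly protein family, led with 100 molecules in 8 cells, all but cell 1, and 47 of them were from cell 5. Cd81, a tetraspanin gene imprinted in the placenta, had 52 molecules in 7 cells, and Snurf, described above, had 46. Without cells 4, 5, 7 and 8, Nap1l5 had 39 molecules and Cd81 had 16, each in 4 of 5 cells.

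Among the non-coding RNAs of the list, Kcnq1ot1 had 39 molecules in 7 cells, with 9 in cell 3 and 7 each in cells 2 and 5. Peg13 had 15 in 6 cells, with 6 in cell 6 and 5 in cell 7, where no other cell held more than 1. Zdbf2, a zinc finger gene, had 22 molecules in 8 cells, all but cell 4. Nap1l4 had 30 molecules in 4 cells, below the 5 cells required. Ube3a, the ubiquitin ligase gene that neurons read from the maternal copy and that lies near Snrpn, had 13 molecules in 7 cells and at most 4 in any cell. Rasgrf1 had 21 molecules in 7 cells, Grb10 had 17 in 6 and H13 had 10 in 5. Usp29, Ppp1r9a and Zrsr1 had 9, 9 and 5 molecules. H19 and Igf2, a pair that is expressed mainly before birth, had 0 molecules in every cell, as did Dio3, Mkrn3 and Peg12.

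**Figure D5:**
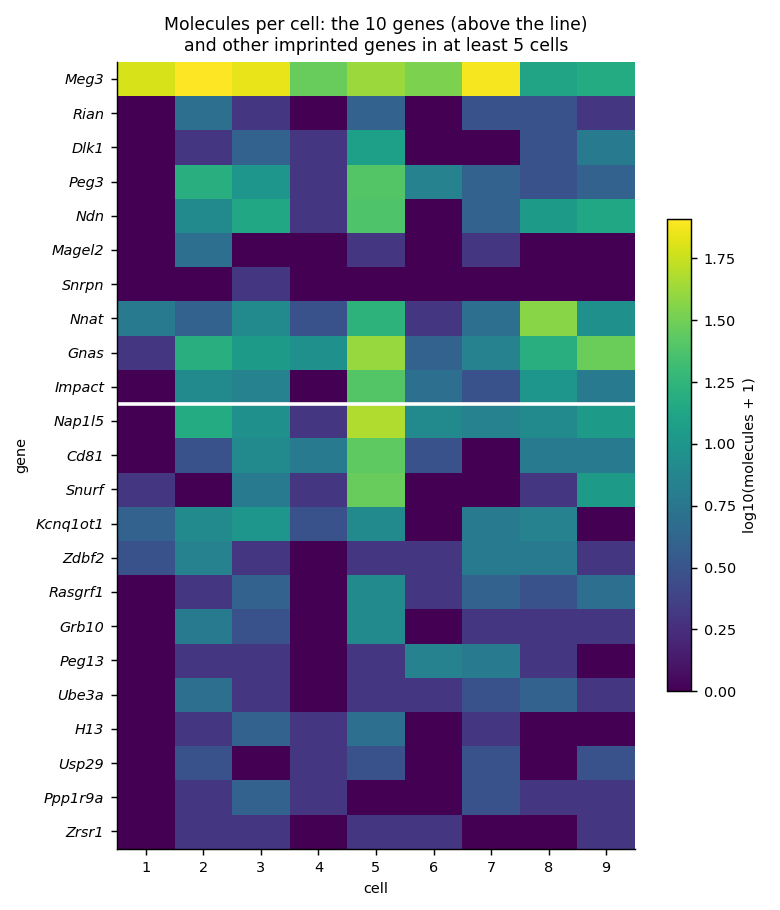
Molecules of the 10 imprinted genes (above the white line) and of the 13 other imprinted genes in at least 5 cells (below it) in cells 1 to 9; colour is log10(molecules + 1). Meg3 is bright in every cell, cell 5 is bright for Gnas and Nap1l5 with 40 and 47 molecules, and cells 1 and 4 are dark for most other genes.

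The members were last set beside the secretagogin gene and a neuropeptide gene of the nucleus. Cell 9, with 19 molecules of Crh, the gene of corticotropin-releasing hormone, was highest in the levels of Gnas, Ndn, Dlk1 and Snurf. Cell 5, with 13 Crh molecules and the greatest depth, held the most molecules of Gnas, Peg3, Ndn, Impact, Dlk1 and Snurf. Cell 3, with the most Scgn, had member levels within the range of the other cells except for the single Snrpn molecule. The share of mitochondrially encoded molecules, 4.31 to 34.2% per cell and lowest in cell 9, was ordered against the levels of Ndn, Dlk1 and Gnas, with Spearman correlations of -0.85, -0.80 and -0.77 over the 9 cells, and less strongly against those of Rian, Magel2, Nnat, Impact, Peg3 and Snrpn, at -0.61 to -0.14. For Meg3 the correlation was positive, at 0.40. The ranks leave out the intervals. For Dlk1, Rian, Magel2 and Snrpn no pair of cells had intervals apart, and the ranks of Snrpn rest on 1 molecule. Ndn and Dlk1 had 0 molecules in the shallow cells 1 and 6, where the mitochondrial share was 19.9 and 34.2%. Those counts were ranked as lowest levels, although their limits were 29.4 and 8.84 per 10000. Mitochondrial molecules are also part of the divisor of a level, and these correlations were not computed without cells 1 and 6. The part of the mitochondrial share in the levels was not tested. No link between these genes was tested, since cells are not replicates.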

How the data were processed

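For 9 cells captured on a microfluidic chip, the authors deposited counts per gene as whole numbers, called molecules. Bowtie and the mm10 build are named per the submitters' processing notes; the collapsing of duplicate reads, the annotation and the strand setting are not given in the sources used here. Columns were matched to cells by cell number, and 0 columns were left unmapped. Totals are sums over 24378 gene rows, without 92 spike-in rows, and ranged from 1021 to 26466. Levels are molecules per 10000. Poisson and Clopper-Pearson intervals are exact at 95%, and equal depth was computed as an exact hypergeometric expectation. Gene positions are from GENCODE M21 and promoter windows from RefSeq (GRCm38.p6), which matched 9 of 10 members. The intervals, the thinning and the likeness ranking were tested on simulated data. The members and lists were chosen with earlier results of these data known.

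Named genes were all members, the other imprinted genes in at least 5 cells or with most molecules, cluster neighbours, the 3 genes most like each member with at least 45 molecules, and Malat1, Scgn and Crh. Other totals, detection limits, thinning and left-out cells were tried; joining or adding Snurf and leaving out cell 1 for mean levels were chosen after seeing the data. The software was Python 3.11.15 with scipy 1.17.1, pandas 2.3.3, matplotlib 3.10.9 and numpy 2.4.6.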

Additional observations from a re-analysis of the deposited data

Results flagged for a closer look

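In 5 of 14 measures given for the 9 cells, the gap between the highest cell and the next was flagged. Each gap was larger than Dixon's 95% critical value of 0.493 of the whole range. Chance alone gives such a gap in about 1 of 20 groups of normally distributed values. Whether the levels, counts divided by depths that differed 25.9-fold, are normally distributed was not checked, so this rate may not hold. The measures also share their cells and totals. That rate does not apply to Magel2 and Snrpn, which had molecules in 3 cells and 1 cell: a gene seen in 1 cell has a gap of the whole range by construction. Meg3 had 597 molecules per 10000 in cell 1, with a gap of 0.837 of the range. The share of the 10 members followed it, at 6.56% in cell 1 and a gap of 0.826. Gnas had 37.1 molecules per 10000 in cell 9, with a gap of 0.703. Magel2 had 4.18 per 10000 in cell 2, a gap of 0.666 that rests on 4 molecules. Snrpn had 0.932 per 10000 in cell 3, which is the only molecule of that row.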

How the results depend on the processing

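Of 53 alternatives for the 4 main values, 51 stayed within 1.5 times the count or within 1 SD of the cells' own values. The count of 8 members in at least 5 cells was 2 after thinning every cell to 1021 molecules (members with at least 5 expected cells), as fewer molecules are then read, and the count of 13 other imprinted genes was 4 when only cells with 2 or more molecules counted. Leaving out each cell in turn gave 8 to 8 members, 10 to 13 other imprinted genes, a median share of 1.05 to 1.22% and a Meg3 share of 44.5 to 55.4% of member molecules. The SD is widened by cell 1, and some moves within it were large. Without Meg3 the median share was 0.537% in place of 1.11%. Without cell 1 the mean Meg3 level was 52.0 per 10000 in place of 113, and that of Nnat 7.93 in place of 12.5. Without cells 4, 5, 7 and 8 the mean Meg3 level was 172. For Snrpn, with 1 molecule, it was 0.186 in place of 0.104. The other mean levels moved by less than 1.5 times. Of the 18 genes named as most like a member, 8 were shared with a ranking by Pearson correlation of log2(molecules per 10000 + 1) and 4 with a ranking without cells 1 and 6. In cells 1 and 6, counts of 0 carry little information. No paired analysis was possible because all 9 cells are in 1 group.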
